A study of Vitis vinifera with 36 samples.

Results

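The second week after veraison in berries of the bud sport ‘Nantaihutezao’ was described from 6 of the 36 libraries of the series, chosen by their labels. S7 berries of ‘Nantaihutezao’ were picked 14 days after veraison (3 libraries, a, b and c) and S6 berries of the same cultivar 7 days after veraison (3 libraries, a, b and c). In the sample labels the bud sport is 11-06-25 and its parent Sanbenti, here matched by role to ‘Nantaihutezao’ and ‘Summer Black’. The other 30 libraries hold the remaining 4 stages of ‘Nantaihutezao’ and all 6 stages, S5 to S10, of ‘Summer Black’. Both cultivars grew as young vines in a greenhouse under the same routine care, and no experimental treatment is named. At each stage berries were picked from a pair of clusters, RNA was taken from the pericarp (the labels say berries), and nothing in the sources says whether the replicates came from separate vines, so the p-values measure the spread between these libraries. A bud sport is a branch that arose by somatic mutation, so all ‘Nantaihutezao’ libraries come from a single clonal line.

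Veraison is the point at which a grape berry softens, colours and starts to store sugar while its acids fall. The pericarp, skin and flesh together, then remodels its cell walls and changes its hormone balance, with abscisic acid known as a promoter of ripening and auxin as a hormone that can delay it. Grape berries also make stilbenes such as resveratrol through the phenylpropanoid pathway, in which phenylalanine ammonia-lyase (PAL), cinnamate 4-hydroxylase (C4H) and 4-coumarate:CoA ligase (4CL) supply a substrate for which stilbene synthase (STS) and chalcone synthase (CHS) compete. Between S6 and S7, nearly the whole stilbene synthase family fell, as did some genes of abscisic acid synthesis, sugar uptake and water channels. Some xyloglucan-modifying enzymes, auxin-responsive genes and small heat shock proteins and a few abundant proline-rich and glycine-rich wall proteins rose.

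The 3 S7 libraries held 18833068, 18689813 and 18987083 counted reads and the 3 S6 libraries 19743771, 19450263 and 19420763, within the range of 15323095 to 20469617 over all 36. The table lists 27751 genes, of which 19260 had a read in at least 1 of the 6 libraries. Spearman's rho over genes was 0.9960 to 0.9963 between S7 libraries and 0.9953 to 0.9964 between S6 libraries, against 0.9763 to 0.9779 between stages. No pair of replicates agreed within sampling noise. Levels are given in CPM, counts relative to the library size after TMM scaling, and every fold change is S7 over S6. Permuting 3 libraries against 3 exactly cannot give a single gene a p below 0.1. Adjusted p-values (FDR) therefore come from the quasi-likelihood fit of edgeR across 15309 genes with enough counts, adjusted by the Benjamini-Hochberg method. Genes were called where the FDR was under 0.05 and the log2 fold change above 1 or below −1. In bulk samples, fewer cells of a type and less RNA per cell cannot be told apart.

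Of the 15309 genes, 1080 (7.05%) were called. At S7, 420 genes (2.74%) were higher and 660 (4.31%) were lower than at S6. These shares of all genes tested are the background for the counts of every list below. The median log2 fold change over all genes tested was 0.01, and that of the called genes was 1.36 for the higher and −1.45 for the lower ones. The S7 and S6 libraries did not overlap for 413 of the 420 higher and 652 of the 660 lower genes, where 27.2% of all genes tested lay wholly higher and 29.1% wholly lower at S7. More than a log2 fold change of 2 was reached by 58 higher and 137 lower genes. The limit on fold change decided many calls, since 7419 genes (48.5%) had an FDR under 0.05, and 167 called genes lay between 1 and 1.1 and another 210 with such an FDR between 0.9 and 1. The called genes that were higher took 4.30% of the reads at S7, against 1.49% at S6. Those that were lower took 1.0% at S7 and 2.50% at S6. The direction of both shifts follows from the choice of the genes, and a few abundant genes, named next, weigh heavily in the first.

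Among called genes, the largest gains in level belonged to a few genes of the cell wall and of defence. VIT_05s0049g00760, annotated as the proline-rich extensin-like protein EPR1, had 6607, 5901 and 6595 CPM at S7, against 1879, 1430 and 1441 CPM at S6 (log2 fold change 2.01, SE 0.08, FDR 3.05e-11). VIT_19s0090g01370, a glycine-rich protein related to carrot DC7.1, had 6634, 6910 and 6860 CPM at S7, against 2736, 2979 and 3000 CPM at S6 (1.23, SE 0.04, FDR 1.52e-12). Its neighbour VIT_19s0090g01350, with the same annotation, had 3411, 3368 and 3771 CPM at S7, against 942, 903 and 969 CPM at S6 (1.91, SE 0.04, FDR 1.15e-13). All 3 genes were higher in every S7 library than in any S6 library. VIT_05s0049g00570, annotated as early nodulin-75, another proline-rich wall protein, had 5200, 4586 and 5179 CPM at S7, against 2353, 1606 and 1658 CPM at S6 (1.42, SE 0.10, FDR 2.57e-08). VIT_01s0011g05140, similar to MLP-like protein 43 of the Bet v 1 family of ligand-binding proteins, had 3519, 3617 and 3748 CPM at S7, against 890, 1060 and 853 CPM at S6 (1.96, SE 0.06, FDR 2.37e-12). Snakin-1, VIT_18s0001g09460, whose potato relative is an antimicrobial peptide, had 1429, 1472 and 1526 CPM at S7, against 525, 530.2 and 525 CPM at S6 (1.49, SE 0.03, FDR 1.15e-13). For these genes, too, the lowest S7 library lay above the highest S6 library. VIT_16s0022g00960, annotated as a 21 kDa protein, rose by 1.17 (SE 0.03), and VIT_17s0000g05110, a cytochrome P450 of the CYP78A5 type that promotes organ growth in Arabidopsis, rose by 1.83 (SE 0.06) on the log2 scale.

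Among called genes, the largest losses in level were spread over metabolism, hormone response and defence. GDP-mannose 3,5-epimerase 1, VIT_05s0020g04510, an enzyme on the way to ascorbate and to wall sugars, had 674, 724 and 729 CPM at S7, against 1468, 1694 and 1667 CPM at S6 (log2 fold change −1.18, SE 0.05, FDR 6.04e-11). Cytosolic glyceraldehyde-3-phosphate dehydrogenase, VIT_01s0010g02460, a glycolytic enzyme, had 464, 468 and 468 CPM at S7, against 996, 987 and 985 CPM at S6 (−1.08, SE 0.03, FDR 1.11e-12). Endochitinase PR4, VIT_05s0094g00360, a defence protein, had 107, 99.4 and 108 CPM at S7, against 384, 374 and 383 CPM at S6 (−1.85, SE 0.04, FDR 1.15e-13). Each of these 3 genes was lower in every S7 library than in any S6 library. Gibberellin-regulated protein 4 (VIT_14s0108g00740, −1.08), an acyl-carrier-protein desaturase (VIT_18s0001g15460, −1.18) and the ammonium transporter VIT_05s0077g00030 (−1.09) fell as well. So did VIT_14s0006g02950 (−2.15), similar to LBD41, a gene that rises under low oxygen in Arabidopsis.

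**Figure D1:**
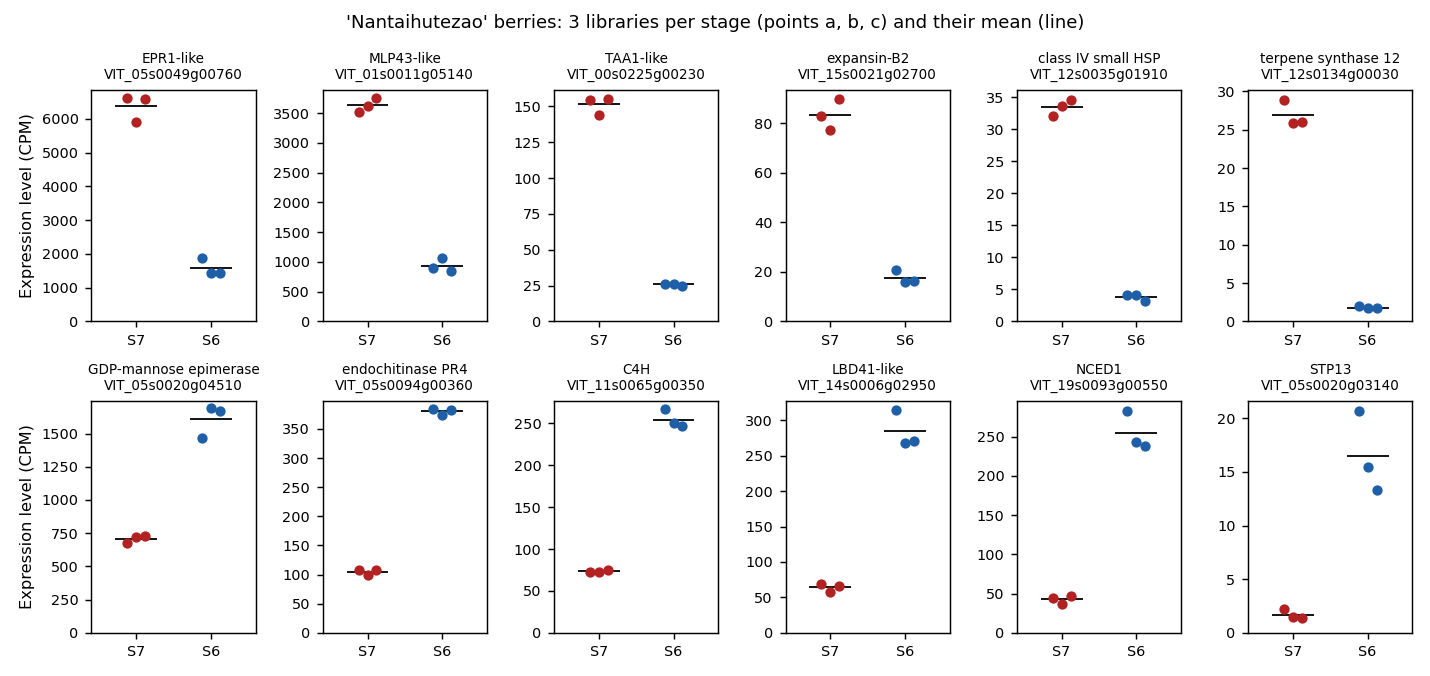
Expression level in CPM (y axis, a separate scale from 0 in each panel) of 12 genes in ‘Nantaihutezao’, with points for the 3 libraries of S7 (left) and the 3 of S6 (right) and a line for their mean. All S7 points lie above the S6 points for the 6 genes of the upper row, and all lie under them for the 6 of the lower row.

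By fold change, the gene highest at S7 relative to S6 among those with at least 10 CPM and an annotation was VIT_12s0134g00030, a probable terpene synthase 12, whose family makes volatile terpenes. It had 28.9, 25.9 and 26 CPM at S7, against 2.03, 1.72 and 1.71 CPM at S6 (log2 fold change 3.89, SE 0.12, FDR 2.2e-12). VIT_04s0023g01290, annotated as an anthocyanidin 3-O-glucosyltransferase 5, had 24.7, 20.3 and 23.2 CPM at S7, against 2.29, 2.47 and 2.36 CPM at S6 (3.26, SE 0.12, FDR 1.61e-11). The S7 and S6 libraries of both genes were far apart. The other 8 highest were the class IV small heat shock protein VIT_12s0035g01910 (3.12), a citrate transporter family member (VIT_02s0025g03310, 2.65), a probable GABA transporter 2 (VIT_02s0025g01230, 2.58), VIT_00s0225g00230 (2.56), the response regulator VIT_01s0026g00940 (2.41), a GAMETE EXPRESSED 1-like gene (VIT_12s0057g00310, 2.27), expansin-B2 (VIT_15s0021g02700, 2.25) and the EPR1-like gene.

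At the other end, VIT_08s0056g01300, a gene with a domain of unknown function, had 1.35, 1.45 and 1.56 CPM at S7, against 30.0, 26.3 and 27.8 CPM at S6 (log2 fold change −4.26, SE 0.12, FDR 1.38e-12). The next, VIT_04s0069g00860, a probable sarcosine oxidase, was uneven between replicates, with 0, 0 and 3.99 CPM at S7, against 24.7, 13.9 and 29.4 CPM at S6 (−4.08, SE 0.58, FDR 3.29e-05 by edgeR), and DESeq2 did not call it (FDR 0.185). A metallothionein-like gene (VIT_08s0007g00330, −3.75), the AP2/ERF and B3 repressor VIT_01s0011g03070 (−3.37), sugar transport protein 13 (VIT_05s0020g03140, −3.28), a trehalose-phosphate phosphatase (VIT_18s0001g05300, −3.20), a wound-induced protein (VIT_00s0203g00020, −3.03), nitrate transporter 1.1 (VIT_02s0154g00260, −2.89), endoglucanase 17 (VIT_07s0005g00740, −2.85) and a gene with a hypoxia-induced protein domain (VIT_13s0067g02300, −2.84) completed the 10 lowest. All 10 had no overlap between the S7 and S6 libraries, which the choice required.

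Nearly every stilbene synthase gene fell. Of 33 genes annotated as STS, 29 were tested, 28 were lower at S7 and 1 was higher, and the median log2 fold change was −1.76 against 0.01 over all genes. The summed level of the family was 306, 278 and 295 CPM at S7, against 975, 964 and 1005 CPM at S6. The 28 lower genes ran in log2 fold change between −2.74 and −1.15, none of them with overlapping libraries. The one with the highest level, VIT_16s0100g00920 (STS 4), had 41.3, 39.4 and 39.8 CPM at S7, against 132, 139 and 138 CPM at S6 (log2 fold change −1.76, SE 0.05, FDR 5.37e-13). VIT_16s0100g01030 (STS 3) had 31.7, 30.1 and 32.1 CPM at S7, against 121, 116 and 126 CPM at S6 (−1.94, SE 0.05, FDR 5.37e-13). The member with the lowest fold change, VIT_16s0100g01120 (STS 5), had 5.01, 3.93 and 5.50 CPM at S7, against 34.8, 31.5 and 30.4 CPM at S6 (−2.74, SE 0.11, FDR 3.35e-11). Grape STS genes are near-identical copies in tandem, and how reads were divided among them was not given, so values of single copies are uncertain while the sum is less so. The STS transcripts that the study lists, all 27 of them lower here, were chosen by it on these samples and are not independent evidence. The single STS-annotated gene that was higher, VIT_16s0022g01070, is one that the study counts as CHS. It had 8.03, 6.35 and 11.6 CPM at S7, against 2.78, 2.53 and 3.48 CPM at S6 (1.57, SE 0.21, FDR 1.95e-05).

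The enzymes upstream of STS fell in part. Of 13 PAL genes tested, 6 were lower at S7 (median log2 fold change −0.92), and the summed PAL level was 886, 798 and 864 CPM at S7, against 1215, 1025 and 1022 CPM at S6. VIT_08s0040g01710, the most abundant of the called PAL genes, had 49.7, 42.8 and 45.0 CPM at S7, against 129, 102 and 102 CPM at S6 (−1.27, SE 0.08, FDR 7.32e-09). The pair with most reads was not called, and the log2 fold change was −0.54 (SE 0.06) for VIT_06s0004g02620 and 0.23 (SE 0.05) for VIT_13s0019g04460. The PAL count was 2 without S6 replicate a and 3 under upper-quartile scaling. For C4H, 2 of 3 genes were lower. VIT_11s0065g00350 had 72.5, 72.5 and 74.8 CPM at S7, against 267, 249.9 and 246 CPM at S6 (−1.79, SE 0.04, FDR 2.04e-13), whereas the most abundant C4H gene, VIT_06s0004g08150, had 322, 322 and 317 CPM at S7, against 414, 392 and 394 CPM at S6 (−0.31, not called). The 4CL gene with most reads, VIT_11s0052g01090, stayed just inside the limit with 148, 145 and 139.6 CPM at S7, against 287, 277 and 265 CPM at S6 (−0.94, SE 0.04, not called). The 1 called 4CL gene, VIT_02s0109g00250, was higher at about 3 CPM and lost its call without S6 replicate b.

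CHS, which draws on the same substrate, was not called by edgeR or DESeq2 in either gene tested, and 1 of the pair had an unadjusted p under 0.05. VIT_05s0136g00260 (CHS 2) had 6948, 6640 and 6834 CPM at S7, against 7617, 6926 and 6789 CPM at S6 (log2 fold change −0.06, SE 0.04, FDR 0.215), and the stages overlapped. Its direction was not settled, since upper-quartile scaling put it at 0.00055. VIT_14s0068g00930 had 1003, 915 and 976 CPM at S7, against 1443, 1264 and 1243 CPM at S6 (−0.44, SE 0.05, FDR 2.92e-06). Its stages did not overlap, and it missed a call only by the limit on fold change. Per transcript length, CHS 2 stood at a mean of 5912 FPKM at S7 and 6124 FPKM at S6, and STS 4 (VIT_16s0100g00920) at 36.1 FPKM at S7 and 124 FPKM at S6. Among anthocyanin and flavonol enzymes 1 of 17 was higher and 2 were lower, while 2 were higher without S6 replicate a or c and 1 was lower without S6 replicate a. The flavonoid 3',5'-hydroxylase genes named by the study, which direct pigment towards blue anthocyanins, included none called, and VIT_06s0009g02920 came nearest at 23.5, 21.8 and 23.1 CPM at S7, against 13.9, 8.60 and 12.8 CPM at S6 (0.96, SE 0.13). It was called without S6 replicate a (1.1) or c (1.03) and under upper-quartile scaling (1.02). Leucoanthocyanidin reductase, VIT_01s0011g02960, which makes catechin for tannins, had 3.18, 5.65 and 4.86 CPM at S7, against 22, 22 and 22.5 CPM at S6 (−2.27, SE 0.14, FDR 4.67e-09).

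**Figure D2:**
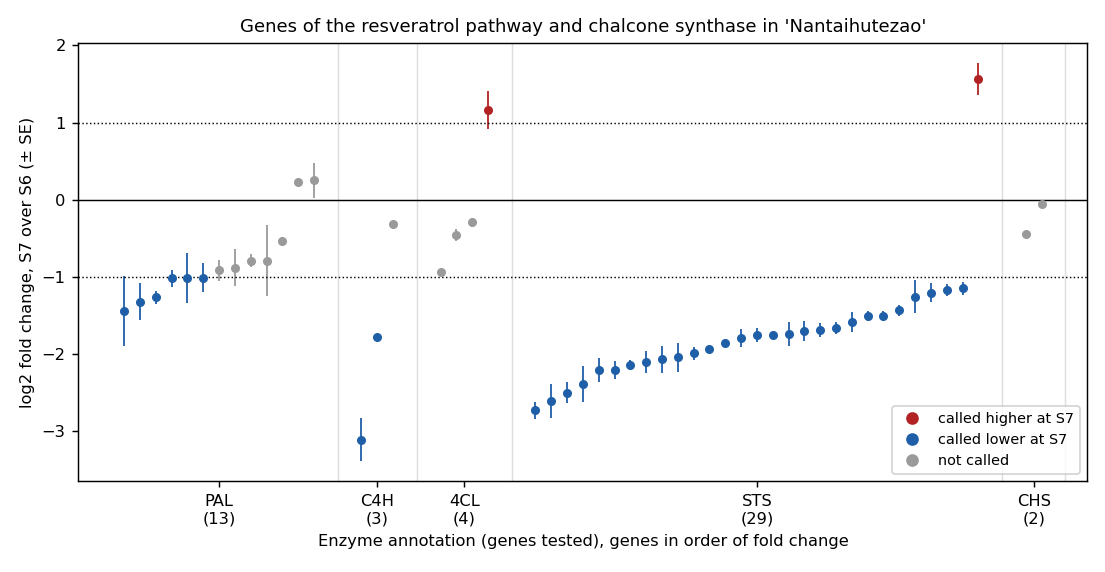
Log2 fold change S7 over S6 with its SE (y axis) of each tested gene annotated as PAL (13), C4H (3), 4CL (4), STS (29) or CHS (2) in ‘Nantaihutezao’, in order of fold change, with dotted lines at −1 and 1. All STS points but 1 lie below −1, while both CHS points, at −0.44 and −0.06, lie between the lines.

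Cell wall genes moved by family. Xyloglucan endotransglucosylase/hydrolases (XTH), which cut and rejoin the xyloglucan chains that tie cellulose fibres together, had 6 of 18 tested genes higher and 1 lower, with a median log2 fold change of 0.70. Their summed level was 1454, 1386 and 1449 CPM at S7, against 961, 880 and 864 CPM at S6. VIT_01s0150g00460 had 158, 151 and 150.0 CPM at S7, against 53.8, 51.5 and 55.0 CPM at S6 (1.52, SE 0.04, FDR 1.56e-12). VIT_02s0012g02220 had 103, 102 and 107 CPM at S7, against 48.2, 48.8 and 48.8 CPM at S6 (1.1, SE 0.04, FDR 3.05e-11). Neither gene overlapped between stages. Among 15 expansins, which loosen walls without cutting them, 1 was higher and 3 were lower. Expansin-B2, VIT_15s0021g02700, had 83.1, 77.3 and 90 CPM at S7, against 20.7, 15.9 and 16.4 CPM at S6 (2.25, SE 0.08, FDR 1.33e-11), while expansin-A1, VIT_17s0000g06360, had 9.21, 8.34 and 9.39 CPM at S7, against 23.1, 19.8 and 22.6 CPM at S6 (−1.28, SE 0.10, FDR 3.99e-08).

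Pectin enzymes, where called, were lower. Of 14 pectinesterases, which strip methyl groups from pectin, 3 were lower (21.4%, against 4.31% of all genes tested). Pectinesterase 40, VIT_07s0005g00730, had 133, 135 and 132 CPM at S7, against 317, 295 and 295 CPM at S6 (log2 fold change −1.18, SE 0.04, FDR 5.16e-12). Of 8 pectate lyases 2 were lower, led by VIT_01s0137g00240 with 17, 16.2 and 19.0 CPM at S7, against 62.1, 52.0 and 48.9 CPM at S6 (−1.64, SE 0.09, FDR 9.95e-10). Without S6 replicate a, 1 pectate lyase was called higher. None of 8 polygalacturonases and none of 29 cellulose synthase genes was called in the 6 libraries by edgeR or DESeq2, with 3 and 18 at an unadjusted p under 0.05. With no filter on low counts 1 polygalacturonase was higher and 1 cellulose synthase gene lower, and 5 pectinesterases were lower. The most abundant polygalacturonase, VIT_02s0025g01330, had 179, 175 and 183 CPM at S7, against 243, 241 and 234 CPM at S6 (−0.41, SE 0.04).

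Sugar handling shifted between transporters. Of 25 sugar transporters tested, 1 was higher and 6 were lower. Their summed level was 1787, 1699 and 1833 CPM at S7, against 1797, 1682 and 1622 CPM at S6. SWEET15, VIT_01s0146g00260, of a family that lets sugars cross membranes down their gradient, had 69.6, 67.4 and 73.6 CPM at S7, against 17.7, 18.8 and 19.0 CPM at S6 (log2 fold change 1.93, SE 0.06, FDR 2.18e-12). Sucrose transporter SUC2, VIT_18s0076g00250, which loads the phloem in Arabidopsis, had 13.4, 12.2 and 12.8 CPM at S7, against 47.6, 44.8 and 49.0 CPM at S6 (−1.87, SE 0.07, FDR 1.2e-11). The hexose carrier STP13, VIT_05s0020g03140, had 2.26, 1.45 and 1.35 CPM at S7, against 20.7, 15.5 and 13.3 CPM at S6 (−3.28, SE 0.20, FDR 4.56e-09). In a list of genes of sucrose cleavage and synthesis, with an invertase inhibitor among them, 3 of 19 were higher. The median log2 fold change of the list was −0.10, with 11 of 19 below 0. Its summed level was 3291, 3126 and 3271 CPM at S7, against 3940, 3800 and 3741 CPM at S6. Sucrose-phosphate synthase 4, VIT_18s0089g00410, had 276, 261 and 267 CPM at S7, against 114, 101 and 105 CPM at S6 (1.33, SE 0.05, FDR 6.47e-12). A putative invertase inhibitor, VIT_02s0012g00500, whose relatives block sucrose cleavage, had 39.1, 26.5 and 36.4 CPM at S7, against 7.74, 10.7 and 8.89 CPM at S6 (1.90, SE 0.14, FDR 3.02e-08).

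Of the central carbon lists, only glycolysis had calls in the 6 libraries. Glycolysis had 1 of 97 genes higher (1.03%) and 6 lower (6.19%), with a median log2 fold change of −0.18. Among all genes tested 2.74% were higher and 4.31% lower. Besides the dehydrogenase above, cytosolic pyruvate kinase, VIT_10s0071g01060, had 61.4, 56.6 and 58.7 CPM at S7, against 137, 131 and 123 CPM at S6 (−1.14, SE 0.05, FDR 8.94e-11). Alcohol dehydrogenase 1, which ferments acetaldehyde to ethanol, was lower in both copies called, VIT_04s0044g01130 (−1.04, or −0.998 and not called without S7 replicate b, and −0.98 with upper-quartile scaling) and VIT_04s0044g01120 (−2.83). The higher gene, aldehyde dehydrogenase VIT_07s0031g02630, had 272, 284 and 274 CPM at S7, against 94.1, 99.6 and 100.3 CPM at S6 (1.5, SE 0.04, FDR 8.77e-13). None of 46 citrate cycle genes and none of 20 genes of malate and phosphoenolpyruvate use was called in the 6 libraries by edgeR or DESeq2, although 34 and 15 of them had an unadjusted p under 0.05. With all 36 libraries in the edgeR fit 1 citrate cycle gene was lower. Their medians were −0.20 and −0.17, and all 46 citrate cycle genes lay between −0.66 and 0.76.

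**Figure D3:**
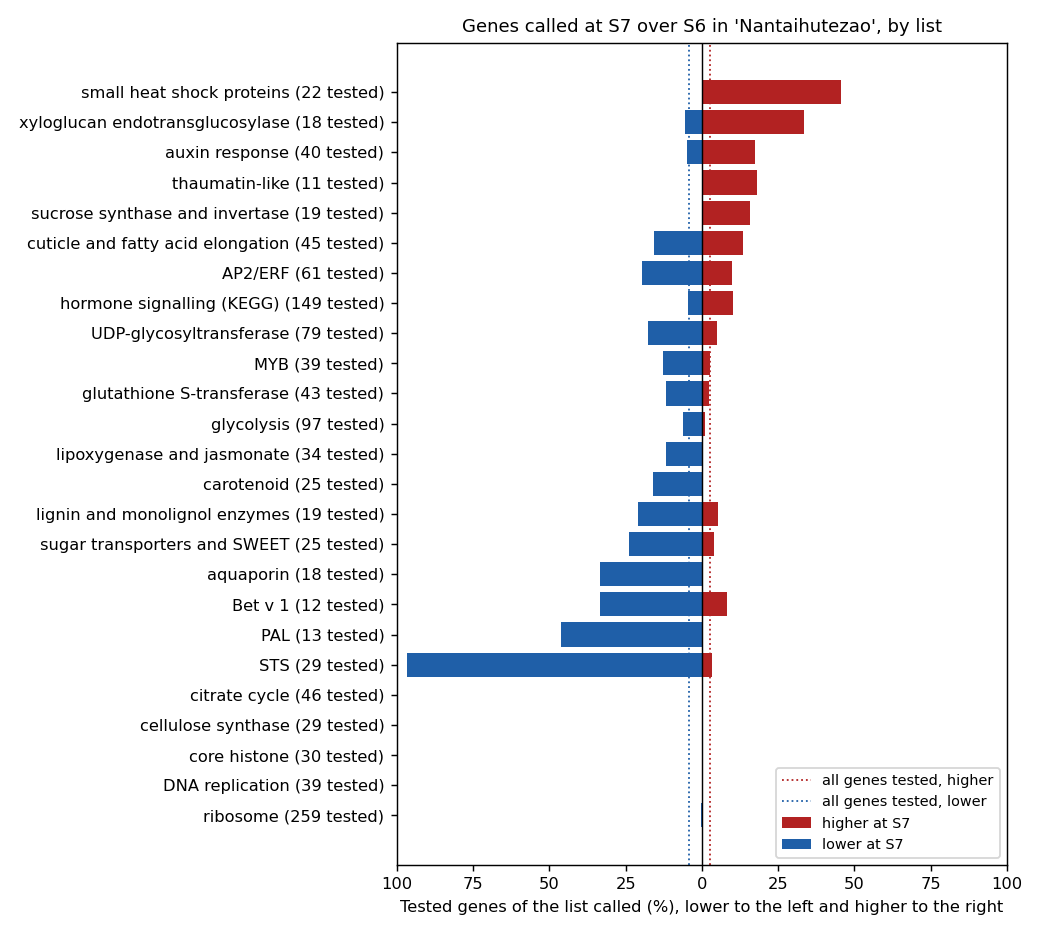
Share of the tested genes of 25 annotation lists called lower (to the left) or higher (to the right) at S7 over S6, in percent of the genes tested, whose number stands beside each list. Dotted lines give the shares among all genes tested, 4.31% lower and 2.74% higher, and the bars for STS (28 of 29 lower) and small heat shock proteins (10 of 22 higher) reach furthest to the left and to the right.

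Hormone genes went in different directions by hormone. Of 40 auxin-response genes tested, 7 were higher and 2 lower, with a median log2 fold change of 0.38. The most abundant, VIT_09s0002g05150, an AUX/IAA gene of the kind that auxin induces and that represses its response, had 630.1, 647 and 659 CPM at S7, against 307, 317 and 310.0 CPM at S6 (1.06, SE 0.03, FDR 3.07e-12). VIT_04s0023g03230, a small auxin-up gene, had 46.4, 45.2 and 49.3 CPM at S7, against 21.8, 24 and 21.5 CPM at S6 (1.07, SE 0.06, FDR 2.59e-09). VIT_00s0225g00230, annotated as the tryptophan aminotransferase that begins auxin synthesis in Arabidopsis, had 155, 144 and 155 CPM at S7, against 25.9, 26.4 and 25.1 CPM at S6 (2.56, SE 0.05, FDR 1.15e-13). In all 3 genes every S7 library lay above every S6 library. The response regulator VIT_01s0026g00940, similar to ARR4, a gene of cytokinin signalling in Arabidopsis, had 11.8, 12.6 and 13.7 CPM at S7, against 2.35, 2.26 and 2.57 CPM at S6 (2.41, SE 0.13, FDR 1.08e-09).

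Abscisic acid genes, where called, were lower. They were 3 of 30 tested. NCED1, VIT_19s0093g00550, which cleaves an epoxycarotenoid in the committed step of abscisic acid synthesis, had 44.0, 36.7 and 46.8 CPM at S7, against 283, 243 and 238 CPM at S6 (log2 fold change −2.58, SE 0.08, FDR 2.08e-12). NCED6, VIT_05s0051g00670, had 5.39, 4.63 and 4.69 CPM at S7, against 11.6, 10.5 and 11.4 CPM at S6 (−1.18, SE 0.12, FDR 8.89e-07). A protein phosphatase 2C, VIT_11s0016g03180, of the kind that restrains abscisic acid signalling, had 127, 129 and 120.4 CPM at S7, against 279.5, 248 and 264 CPM at S6 (−1.07, SE 0.05, FDR 1.02e-10). The carotenoid genes, which include both NCED genes, had 4 of 25 lower.

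Genes of ethylene, and those of gibberellin and brassinosteroid taken as a joint list, were mostly lower where called. The lower ones were 3 of 14 (21.4%) and 3 of 18 (16.7%), against 4.31% of all genes tested. In the joint list 1 gene was called higher with no filter and without S6 replicate a, b or c or S7 replicate a. Ethylene receptor 2, VIT_05s0049g00090, had 115, 113 and 113 CPM at S7, against 241, 241 and 229 CPM at S6 (log2 fold change −1.06, SE 0.04, FDR 9.96e-12). A 1-aminocyclopropane-1-carboxylate synthase, VIT_02s0025g00360, which makes the precursor of ethylene, had 4.36, 3.50 and 4.37 CPM at S7, against 12.6, 10.1 and 10.9 CPM at S6 (−1.45, SE 0.14, FDR 4.36e-07). Of 14 ethylene genes 3 were lower, and the 1 called higher, VIT_06s0009g01380 (EIN3-like), overlapped with 6.41, 0 and 3.34 CPM at S7, against 0, 1.5 and 0 CPM at S6, and lost its call without S6 replicate a or c or S7 replicate a or c. The call was also lost with DESeq2 (FDR 0.590), with all 36 libraries in the edgeR fit (FDR 0.111) and with the replicate letter as a block (FDR 0.0562). Gibberellin 2-beta-dioxygenase 8, VIT_10s0116g00410, which inactivates gibberellins, had 0.539, 0.538 and 0.539 CPM at S7, against 6.19, 6.66 and 6.26 CPM at S6 (−3.54, SE 0.21, FDR 2.87e-09).

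Among transcription factors the AP2/ERF family had the most calls, with 6 of 61 genes higher and 12 lower (median log2 fold change −0.28). Those are 9.84% and 19.7% of the genes tested in the family, against 2.74% and 4.31% of all genes tested. ERF003, VIT_04s0008g06000, had 388, 385 and 399 CPM at S7, against 169.7, 159.7 and 163 CPM at S6 (1.26, SE 0.04, FDR 1.52e-12). ERF4, VIT_12s0028g03270, a repressor in Arabidopsis, had 272, 267 and 271 CPM at S7, against 125, 108 and 104 CPM at S6 (1.27, SE 0.05, FDR 6.57e-11). Both were higher in every S7 library. VIT_18s0072g00260, similar to ABR1, a repressor of abscisic acid responses in Arabidopsis, had 25.2, 25.0 and 21.6 CPM at S7, against 124, 102 and 107 CPM at S6 (−2.21, SE 0.08, FDR 6.53e-12). ERF071, VIT_07s0005g00820, had 64.4, 59.3 and 60.2 CPM at S7, against 167, 162 and 162 CPM at S6 (−1.41, SE 0.04, FDR 2.64e-12). VIT_01s0011g03070, similar to TEM1, a repressor of flowering in Arabidopsis, had 4.09, 2.90 and 3.13 CPM at S7, against 35.0, 34.8 and 35.2 CPM at S6 (−3.37, SE 0.11, FDR 3.04e-12).

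The other families gave fewer calls. Among all genes tested 2.74% were higher and 4.31% lower, where NAC genes had 5.56% each way and WRKY genes 7.14% lower. The numbers of genes higher and lower were 1 and 5 of 39 MYB genes, 2 and 2 of 36 NAC genes, 0 and 3 of 42 WRKY genes, 1 and 1 of 13 MADS-box genes, and 0 and 4 of 50 bHLH genes. Without S7 replicate c, 5 WRKY genes were lower, and without S6 replicate a, b or c 1 was higher. Without S6 replicate a, b or c or S7 replicate b, 2 MYB genes were higher, and the lower MADS-box call was lost without S6 replicate a or S7 replicate a or c and with DESeq2. With no filter on low counts there were 3 lower MADS-box genes, 8 lower MYB genes and 4 lower NAC genes, and with upper-quartile scaling 4 higher NAC genes. Myb-related protein 305, VIT_14s0066g01090, had 15.4, 16.5 and 18.1 CPM at S7, against 3.68, 4.73 and 5.30 CPM at S6 (log2 fold change 1.87, SE 0.13, FDR 1.57e-08). NAC78, VIT_02s0012g01040, had 23.8, 21.5 and 24.6 CPM at S7, against 6.83, 5.91 and 8.83 CPM at S6 (1.70, SE 0.12, FDR 2.28e-08), and NAC68, VIT_14s0068g01490, had 34, 32.5 and 35.1 CPM at S7, against 72.8, 78.1 and 77.9 CPM at S6 (−1.17, SE 0.05, FDR 1.27e-10).

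Small heat shock proteins, chaperones that hold unfolded proteins, had 10 of 22 tested genes higher (median log2 fold change 0.66). Their summed level was 491, 472 and 485 CPM at S7, against 366, 377 and 366 CPM at S6. The class I gene VIT_13s0019g02850 had 63.0, 54.7 and 54.9 CPM at S7, against 22.5, 23.5 and 20.9 CPM at S6 (1.37, SE 0.07, FDR 5.01e-10). The class IV gene VIT_12s0035g01910 had 32.1, 33.6 and 34.6 CPM at S7, against 4.16, 4.14 and 3.27 CPM at S6 (3.12, SE 0.10, FDR 3.83e-12). The called members had between 0.898 and 57.5 CPM on average at S7, and the class I copies on the same chromosome can share reads. Among the larger chaperones HSP70 and HSP90, 1 of 23 genes was lower, with a median of −0.25, and 1 was higher without S6 replicate b. The lower one, VIT_02s0025g00280 (heat shock protein 83), had 10.8, 9.41 and 8.63 CPM at S7, against 30.0, 27.9 and 29.1 CPM at S6 (−1.59, SE 0.09, FDR 1.84e-09).

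Defence proteins were split. Both called thaumatin-like genes of 11 tested were higher, and the osmotin-like VIT_02s0025g04340 had 202, 195 and 197 CPM at S7, against 63.3, 72.7 and 66.5 CPM at S6 (log2 fold change 1.56, SE 0.05, FDR 2.79e-12). Chitinases, which break fungal cell walls, had 2 of 17 higher and 4 lower. Their shares were 11.8% and 23.5%, against 2.74% and 4.31% of all genes tested. The Bet v 1 family had 1 of 12 higher and 4 lower, yet its summed level was 6034, 6194 and 6322 CPM at S7, against 3155, 3518 and 3268 CPM at S6. The MLP43-like gene VIT_01s0011g05140 held most of it at S7, with 3628 of 6183 CPM on average, but not at S6, with 934 of 3314 CPM. The lower member with most reads, VIT_05s0077g01670, similar to the apricot allergen Pru ar 1, had 26.2, 25.7 and 21.6 CPM at S7, against 156, 169 and 165 CPM at S6 (−2.73, SE 0.06, FDR 1.91e-13).

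Water channels were lower where called. Of 18 aquaporins tested 6 were lower (33.3%, against 4.31% of all genes tested), with a median log2 fold change of −0.61. The summed level was 9725, 9790 and 10142 CPM at S7, against 11717, 11770 and 11533 CPM at S6. TIP1-3, VIT_13s0019g00330, of a tonoplast type, had 66.6, 63.4 and 66.4 CPM at S7, against 178, 167 and 162 CPM at S6 (−1.36, SE 0.05, FDR 5.15e-12). PIP2-7, VIT_06s0004g02850, of a plasma membrane type, had 8.78, 7.21 and 10.9 CPM at S7, against 38.8, 29.6 and 30.1 CPM at S6 (−1.87, SE 0.13, FDR 1.85e-08). The nitrate transporter NRT1.1, VIT_02s0154g00260, had 1.40, 1.88 and 1.67 CPM at S7, against 11.9, 13.6 and 11.5 CPM at S6 (−2.89, SE 0.15, FDR 6.74e-10).

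Glycosyltransferases and lignin genes leaned lower in their calls, while their summed levels moved little. Summed means at S7 and S6 were 2998 and 2912 CPM for UDP-glycosyltransferases and 798 and 814 CPM for lignin genes. Of 79 UDP-glycosyltransferases, which attach sugars to small molecules, 4 were higher and 14 lower, among them VIT_15s0046g01190 with 18.1, 17.2 and 17.9 CPM at S7, against 82.2, 75.7 and 70.2 CPM at S6 (log2 fold change −2.09, SE 0.07, FDR 2.79e-12). Of 19 lignin genes 1 was higher and 4 were lower, where the higher count ran between 0 and 2 as single libraries were left out. The lower VIT_08s0040g00780, a cytochrome P450 that hydroxylates coumaroyl esters, had 9.48, 8.71 and 8.96 CPM at S7, against 24.6, 28.6 and 26.9 CPM at S6 (−1.55, SE 0.09, FDR 2.09e-09). Cuticle and fatty acid elongation genes went both ways, with 6 of 45 higher and 7 lower. The wax-related 3-ketoacyl-CoA synthase 19 gene VIT_07s0141g00090 rose by 1.21 (SE 0.07) and the 3-ketoacyl-CoA synthase 4 gene VIT_03s0063g02640 fell by 1.11 (SE 0.05) on the log2 scale.

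Genes of cell division and basic machinery gave almost no calls. None of 39 DNA replication, 30 core histone and 19 cyclin genes was called in the 6 libraries by edgeR or DESeq2, with 13, 19 and 5 at an unadjusted p under 0.05. Upper-quartile scaling gave 1 higher histone, no filter 1 lower histone and 1 higher cyclin, and all 36 libraries 1 higher cyclin. Without S6 replicate a 1 of each group was called higher, without S6 replicate b 1 cyclin, without S6 replicate c 1 histone and 1 cyclin, and without S7 replicate b 1 cyclin, while 1 histone was called lower without S7 replicate c. Of 259 ribosomal genes 1 was lower, and its call was lost without S6 replicate a or S7 replicate a or c. The ribosomal genes nevertheless sat below the median of all genes, at −0.24 in log2 fold change, and 53 of 259 were above 0. Their summed level was 21936, 22443 and 22963 CPM at S7, against 26772, 28604 and 28846 CPM at S6. Of 59 photosynthesis and antenna genes 4 were lower (6.78%, against 4.31% of all genes tested), or 2 without S6 replicate a. Their median was −0.05.

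By pathway name, calls gathered where the lists had them. In the KEGG pathway flavonoid biosynthesis, which holds the STS genes, 34 of 58 tested genes were lower, and in phenylpropanoid biosynthesis 17 of 74. Circadian rhythm had 28 of 56 lower, since STS genes carry the CHS entry of that pathway, while a list of clock genes proper had 1 of 28 higher and 1 lower. The lower clock call was lost without S6 replicate a or b or S7 replicate a, and without S7 replicate b there were 2. It was also lost with upper-quartile scaling. Plant hormone signal transduction had 15 of 149 genes higher and 7 lower, and protein processing in the endoplasmic reticulum, which holds small heat shock proteins, 10 of 168 higher and 3 lower. By protein domain, 7 of 14 genes with a wound-induced protein domain were lower. The called genes included 29 of 324 tested genes that the authors named as new, where 7.05% of all genes tested were called. Of the called genes, 117 had no Swiss-Prot or Pfam annotation, a count given without the number of such genes tested.

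Marker genes of tissues in or near the pericarp moved between the stages as well. The summed level of 13 seed storage genes was 620 to 639 CPM at S7, against 349 to 390 CPM at S6, with 7 of them without a read in any of the 6 libraries, and it rested on glutelin VIT_06s0004g04060, at 606, 597 and 613 CPM at S7, against 331, 372 and 342 CPM at S6 (log2 fold change 0.80, not called). Oleosin 1, VIT_02s0234g00110, a seed oil body protein, was called at 1.04 (SE 0.09), but not without S6 replicate c. Of the 4 seed storage genes tested, 2 were above 0 and 2 below. Those below 0, neither called, were also oleosins, VIT_14s0066g00700 at −0.68 (SE 0.21) and VIT_16s0013g00880 at −0.38 (SE 0.32). The 63 epidermis and cuticle markers summed to between 6674 and 6904 CPM at S7 and between 5362 and 5598 CPM at S6, with 23 without a read, 3 of 20 tested higher and 2 lower. The rise of this sum rested on lipid-transfer proteins. Mean CPM at S7 and S6 were 2619.5 and 2065.4 for VIT_17s0000g03280, 2119.3 and 1636.6 for VIT_08s0058g01230, and 673 and 243 for VIT_08s0058g01210. Of the 20 tested, 11 were above 0 in log2 fold change and 9 below, with a median of 0.05. Phloem markers summed to between 96.7 and 103 CPM at S7 and between 129 and 134 CPM at S6. Of the 9, 3 had no read, and SUC2 was the 1 called lower, or 2 lower without S6 replicate a. The fall of the sum rested on SUC2, with means of 12.8 CPM at S7 and 47.1 CPM at S6. Among the 5 tested, 3 were above 0 in log2 fold change and 2 below, with a median of 0.04. The 7 markers of xylem and lignifying cells summed to between 201 and 225 CPM at S7 and between 180 and 197 CPM at S6, nearly all from COBRA-like protein 4 (VIT_17s0000g05060), and the 1 tested was not called. The part of these shifts in the other results was not tested.

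Set within the whole ripening series, the week had the most calls of the 5 weekly steps in ‘Nantaihutezao’. There were 1080 calls, against 1005 for S6 over S5, 597 for S8 over S7, 622 for S9 over S8 and 436 for S10 over S9, where neighbouring steps share libraries. The genes higher at S7 were chosen on the S7 and S6 libraries, and their course at the other stages was not part of that choice. Their share of the reads, in which abundant genes weigh most, was 0.664% at S5. With S6 and S7 as given above, it was 7.59% at S8 and 10.1% at S9, ending at 11.7% in S10 berries. Of the 420, 222 (52.9%) had their highest mean level at S10 and 114 (27.1%) at S7, where 26.8% and 10.1% of all genes tested did. Of the 660 genes lower at S7, 459 (69.5%) had their highest mean level at S5 and 334 (50.6%) their lowest at S10, against 28.5% and 27.9% of all genes tested. Another 150 were lowest at S7 itself (22.7%, against 8.09% of all). The choice of genes by S7 and S6 fixes these shares in part. Expansin-B2 (VIT_15s0021g02700) went on to 1091, 2104 and 2866 CPM on average at S8, S9 and S10. The STS family behaved otherwise, with summed means of 376, 982, 293, 335, 472 and 725 CPM from S5 to S10. The S7 mean was the lowest of the 6 stages and followed directly on the highest.

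**Figure D4:**
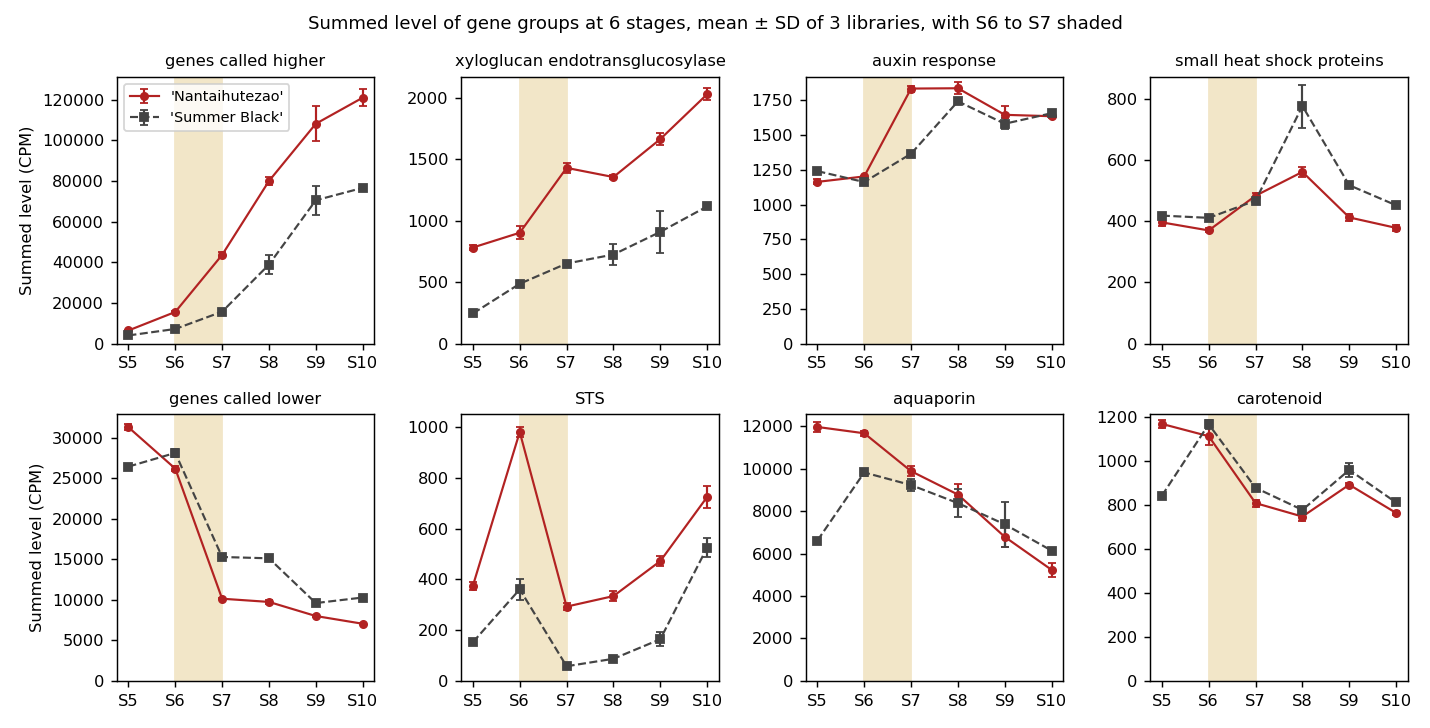
Summed level in CPM (y axis, from 0 in each panel) of the genes called higher or lower at S7 over S6 and of 6 lists at stages S5 to S10, as mean ± SD of 3 libraries, for ‘Nantaihutezao’ (circles, solid) and ‘Summer Black’ (squares, dashed), with the interval from S6 to S7 shaded. The STS panel shows 982 CPM at S6 and 293 CPM at S7 in ‘Nantaihutezao’, and auxin response has 1834 CPM at S7, 1837 CPM at S8 and 1635 CPM at S10.

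The same week in ‘Summer Black’ shares no library with that of ‘Nantaihutezao’. The study describes the bud sport as ripening earlier than its parent, so equal stage numbers need not be equal states of ripening. Summed CHS means from S5 to S7 were 638, 5649 and 7932 CPM in ‘Summer Black’, against 6086.5, 8427 and 7773 CPM in ‘Nantaihutezao’. Cultivar and ripening state cannot be told apart in the comparison below, and the part of ripening state was not tested. ‘Summer Black’ had 372 genes (2.4%) higher and 632 (4.08%) lower. Of the 420 genes higher in ‘Nantaihutezao’, 358 were tested in ‘Summer Black’, and there 105 were higher, 10 lower and 243 not called. Of the 660 lower genes, 633 were tested there, with 293 lower, 5 higher and 335 not called. Whether the changes differ was tested as an interaction in the 12 libraries of both cultivars, which called 613 of 15887 genes (3.86%), 266 with the more positive change in ‘Nantaihutezao’ (1.67%) and 347 with the more negative (2.18%). The interaction was called for 86 of the 420 higher genes in the positive direction and 6 in the negative, and for 167 of the 660 lower genes in the negative direction and 14 in the positive. The 420 and 660 genes were chosen on libraries that form an arm of this test, which favours these directions, so the split is a description only.

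On the log2 scale, many STS genes fell less in ‘Nantaihutezao’ than in ‘Summer Black’. In summed level the larger loss was in ‘Nantaihutezao’, from 982 CPM at S6 to 293 CPM at S7, against 361 to 57.8 CPM in ‘Summer Black’. The interaction was positive and called for 13 of 29 genes, and 27 of 28 tested genes were also lower in ‘Summer Black’, where the median log2 fold change was −2.79. For VIT_16s0100g00920 (STS 4), the change was −1.76 in ‘Nantaihutezao’ and −2.84 in ‘Summer Black’, with 7.06, 7.62 and 5.74 CPM at S7, against 54.9, 46.1 and 46.7 CPM at S6 in ‘Summer Black’ (interaction 1.09, SE 0.12, FDR 1.44e-06). The PAL gene with most reads had opposite signs in the cultivars. VIT_06s0004g02620 had a log2 fold change of −0.54 in ‘Nantaihutezao’ and 0.71 in ‘Summer Black’ (interaction −1.25, SE 0.08, FDR 2.78e-09), neither large enough to be called within its cultivar.

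XTH genes also differed between the cultivars, with a positive interaction called for 8 of 18 genes and a negative one for 1. XTH33, VIT_01s0026g00200, had 15, 15.1 and 15.5 CPM at S7, against 5.98, 5.80 and 5.14 CPM at S6 in ‘Nantaihutezao’ (log2 fold change 1.43). In ‘Summer Black’ the gene had 0.863, 0.913 and 0.698 CPM at S7, against 4.91, 4.56 and 3.96 CPM at S6 (−2.42), and the interaction was 3.86 (SE 0.20, FDR 3.31e-10). Expansin-B2 (VIT_15s0021g02700) had a log2 fold change of 0.12 in ‘Summer Black’ (interaction 2.13, SE 0.13, FDR 1.67e-09). Pectinesterase 40 (VIT_07s0005g00730) had one of 0.16 there (interaction −1.33, SE 0.06, FDR 1.01e-10). ERF003 (VIT_04s0008g06000) stood at 0.02 in ‘Summer Black’ (interaction 1.25, SE 0.06) and ERF4 (VIT_12s0028g03270) at −0.34 (interaction 1.62, SE 0.08), both with FDR 2.08e-10. NCED1 (VIT_19s0093g00550) fell in both cultivars, by 2.58 in ‘Nantaihutezao’ and by 1.30 in ‘Summer Black’ (interaction −1.27, SE 0.10, FDR 2.56e-08). For the EPR1-like gene VIT_05s0049g00760 the interaction was −0.31 (FDR 0.0632), with a rise of 2.01 in ‘Nantaihutezao’ and 2.33 in ‘Summer Black’.

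**Figure D5:**
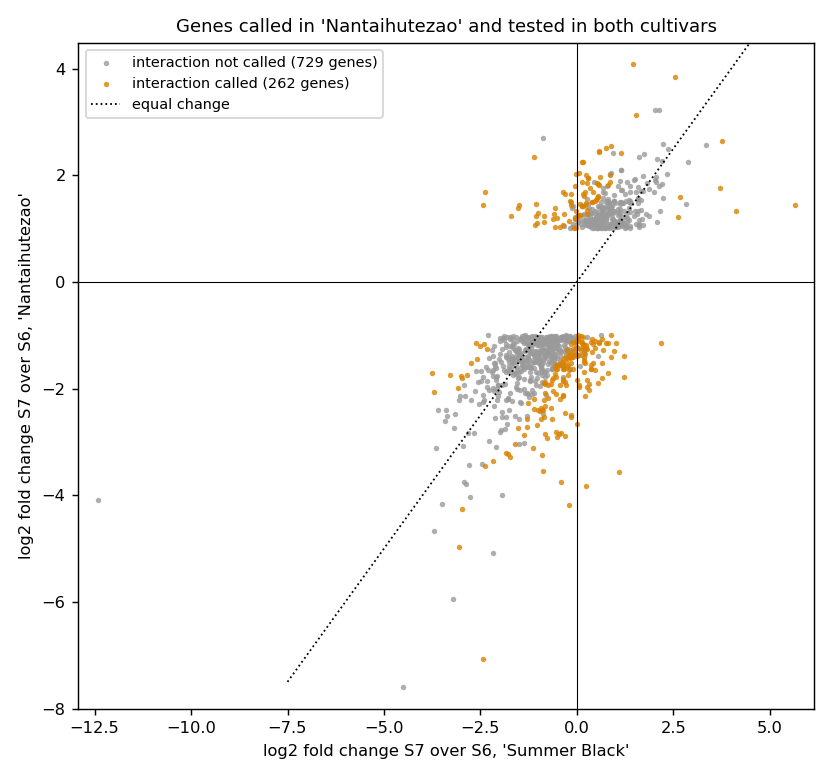
Log2 fold change S7 over S6 in ‘Nantaihutezao’ (y axis) against that in ‘Summer Black’ (x axis) for the 991 genes called in ‘Nantaihutezao’ and tested in both cultivars, with the dotted line marking equal change. Orange points (262 genes) have a called interaction and grey points (729 genes) do not.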

How the data were processed

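RNA sequencing reads from berries of both cultivars at 6 weekly stages were filtered, then aligned by TopHat 2 to the reference genome of Vitis vinifera, and the authors deposited raw read counts per gene for 36 libraries. The counting tool, strand setting, genome build and annotation version were not given in the sources used here, so overlapping or antisense genes and near-identical copies can share reads. FPKM values, deposited by the authors from Cuffdiff, were used here only for levels per transcript length. Columns with the authors' own DESeq fold changes and FDR were not used. Every count column of the table belonged to a labelled library.

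The comparison of S7 with S6 in ‘Nantaihutezao’ was fitted to the counts of its 6 libraries in edgeR 4.0.16 (R 4.3.3, limma 3.58.1) by the quasi-likelihood F test, after filterByExpr (minimum count 10, minimum total 15) and TMM scaling. P-values were adjusted by the Benjamini-Hochberg method over 15309 genes, and a gene was called with FDR below 0.05 and a log2 fold change beyond 1 in size. SE is the log2 fold change divided by the root of F. The interaction, S7 over S6 in ‘Nantaihutezao’ minus the same in ‘Summer Black’, was fitted in 12 libraries. CPM were scaled by TMM over 36 libraries. On simulated counts with 200 changed genes, the comparison recovered 91 of 100 at a log2 fold change of 1.5 and 97 of 100 at 3. Of the 15182 genes tested there, changed ones included, 7 unchanged genes were called. The interaction recovered 85 and 99 of 100, with 5 unchanged genes called among 15668 tested, changed ones included. Unchanged genes were simulated with no change at all, so calls near the limit on fold change were not examined.

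Lists were drawn from KEGG, Pfam and Swiss-Prot annotation in the table and described by counts and medians with no set test. Named genes were the 10 highest and 10 lowest by fold change with no overlap, an annotation and at least 10 CPM at the higher stage, the 8 largest gains and 8 largest losses in CPM, the 2 called members of each list with the highest mean CPM in each direction (with none called, the tested member with most), the resveratrol pathway genes that the study names, and the 5 highest and 5 lowest interactions with an annotation and at least 10 CPM in a group. From the lists and the pathway genes a selection by mean CPM is given. A few others, such as uncalled members of high level, were chosen after their values were seen. Members and lists were chosen with earlier results of these data known. As alternatives, DESeq2 1.42.0, glmTreat, scaling by the upper quartile, a fit with no filter, a block for the replicate letter, a joint fit of all 36 libraries and omission of each library were tried. Tables and figures used Python 3.11.15 with numpy 2.4.6, pandas 2.3.3 and matplotlib 3.10.9. No genome sequence was used here.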

Additional observations from a re-analysis of the deposited data

Results flagged for a closer look

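At equal stage numbers, the change between S7 and S6 differed between the cultivars for 613 genes by edgeR's interaction test. Among them, 10 named genes stood out by the size of that difference. Interactions are log2 differences of ‘Nantaihutezao’ minus ‘Summer Black’. The terpene synthase VIT_12s0134g00030 had an interaction of 4.32 (SE 0.70, FDR 0.000172), and in ‘Summer Black’ the gene was barely detected, with 0.270, 0.107 and 0.0537 CPM at S7, against 0.320, 0.0530 and 0.214 CPM at S6. Germacrene D synthase VIT_19s0014g04930, which makes a sesquiterpene, was higher at S7 in ‘Nantaihutezao’ (22.9, 23.2 and 21.2 CPM, against 7.63, 6.61 and 6.69 CPM at S6) and lower in ‘Summer Black’ (4.53, 2.42 and 3.06 CPM at S7, against 19.2, 16.0 and 17.4 CPM at S6), an interaction of 4.08. XTH33, VIT_01s0026g00200, reached 3.86. VIT_18s0001g06150 had 80.0, 73.1 and 79.0 CPM at S7, against 47.5, 45.0 and 43.4 CPM at S6 in ‘Nantaihutezao’ (0.78, not called) and a log2 fold change of −1.86 in ‘Summer Black’, an interaction of 2.65.

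On the negative side, the interaction was −2.57 for nitrate transporter NRT1.1 (VIT_02s0154g00260), whose log2 fold change in ‘Summer Black’ was −0.31, and −2.66 for the gibberellin 2-beta-dioxygenase VIT_10s0116g00410, whose log2 fold change there was −0.87. The MYB86-like gene VIT_07s0005g02480 had 2.37, 2.85 and 1.89 CPM at S7, against 8.27, 8.44 and 8.30 CPM at S6 in ‘Nantaihutezao’ (−1.81), 0.66 in ‘Summer Black’ and an interaction of −2.46. VIT_16s0050g01920 had 6.52, 7.69 and 8.79 CPM at S7, against 21.0, 20.2 and 19.5 CPM at S6 in ‘Nantaihutezao’ (−1.39), 1.22 in ‘Summer Black’ and an interaction of −2.60. VIT_04s0008g05640 had 1, 0 and 0 reads at S7, against 50, 79 and 58 reads at S6 in ‘Nantaihutezao’, a ratio of 0.00538 with an exact counting interval of 0.000135 to 0.0303 that covers counting error only. Its log2 fold change was −2.43 in ‘Summer Black’ and the interaction −4.65, a fitted value that depends on the prior count.

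The ubiquitin gene VIT_19s0177g00070 had the largest interaction of these, 10.2, but single libraries carried its level. Its S7 over S6 log2 fold change in ‘Nantaihutezao’ was 3.28 (FDR 0.0504, not called). That change was called with the replicate letter as a block (FDR 1.62e-12), where replicate b is the high library at both stages, and also with upper-quartile scaling (FDR 0.0453), with no filter (FDR 0.0228), and without S6 replicate b (9.72), S7 replicate a (3.86) or S7 replicate c (3.86). It had 0.593, 82.9 and 0.593 CPM at S7, against 0.0534, 8.65 and 0 CPM at S6 in ‘Nantaihutezao’, and 0, 0.0537 and 0.752 CPM at S7, against 85.4, 0 and 15.1 CPM at S6 in ‘Summer Black’. The interaction call was lost under DESeq2 (FDR 0.0576), under glmTreat, without S7 replicate b of ‘Nantaihutezao’ (4.66, FDR 0.514) and without S6 replicate a of ‘Summer Black’ (8.05, FDR 0.0580).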

How the results depend on the processing

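The count of called genes at S7 over S6, 1080 (420 higher and 660 lower), was 1018 with DESeq2, 1089 with upper-quartile scaling, 1255 with no filter and 1300 with all 36 libraries in one fit, which lost 64, 62, 38 and 38 of the calls. Leaving out each library gave 1076 to 1128 (392 to 468 higher, 634 to 711 lower) and lost 88 to 132 calls. Testing directly against a log2 fold change of 1 (glmTreat) left 429 genes, 131 higher and 298 lower. For the interaction, called for 613 genes, the count was 578 to 643 under DESeq2, upper-quartile scaling, no filter and all 36 libraries, 579 to 628 without single libraries (245 to 287 positive, 309 to 383 negative), and 118 with glmTreat (49 positive, 69 negative). The share of higher genes among calls was 38.9%, or 45.1% with upper-quartile scaling, which moved the median of all genes to 0.07.

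The sources do not say how the replicate letters were given, and the samples were not treated as paired. Same-letter libraries deviated together with correlations of 0.0369 to 0.0444, against −0.0267 to −0.011 for different letters, so each correlated best with its own letter. Such small values cannot decide whether the letters pair samples, since noise in single genes also lowers them. With the letter as a replicate block, 1103 genes were called (439 higher, 664 lower) and 12 calls were lost, and 617 interactions were called.

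For named genes at S7 over S6, 1150 values under alternatives kept direction and side of the threshold, 27 lost a call, 9 gained one, and 2 reversed without a call in either fit: CHS 2 (VIT_05s0136g00260) at 0.00055 (edgeR FDR 0.991) with upper-quartile scaling, and the ubiquitin gene VIT_19s0177g00070 at −2.27 without S7 replicate b, against 9.72 without S6 replicate b. For the interaction 176 kept both and 4 lost a call. Of the list counts 1208 moved by less than 1.5 times and 160 by more. STS stayed at 28 lower genes in each of these fits but glmTreat, which left 24. Small heat shock proteins fell to 6 and XTH genes to 3 higher ones with glmTreat. With all 36 libraries 19 AP2/ERF genes and 22 UDP-glycosyltransferases were lower. VIT_04s0069g00860 lost its call with DESeq2 (−4.09). Of the called genes 20 had a stage at 3 reads or fewer per library, and their fitted fold changes are no bounds.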
